A study of Mus musculus with 16 samples.

Results

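The genes described here carry glucose into the muscle fibre, split it to pyruvate and lactate, and store it as glycogen or release it again. The set holds 37 genes, named by symbol from what they are known to do, and all 37 were on the array and among the 28964 genes tested. They were measured in skeletal muscle of male mice on 16 one-colour Agilent arrays, 4 in each of 4 groups. Wild-type mice (WT, Skm-CB1R+/+) and mice without the cannabinoid 1 receptor of the muscle fibre (CB1KO, Skm-CB1R-/-) each ate a standard diet (SD; 16.7% of energy from fat and 12.4% from sugar) or a diet high in fat and sugar (HFHS; 49.2% and 32.2%) for 15 weeks, and were 21 to 23 weeks old. The knockout joins a floxed receptor gene (CNR1flox/flox) to Acta-Cre, a Cre recombinase driven by the ACTA1 promoter, which is active in muscle fibres, so other cells in the tissue keep the receptor gene.

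Several labels limit what the groups can be taken for. The breeding text writes both genotypes as CNR1flox/flox-Cre+, and a diet tag contradicts the titles for the CB1KO SD and WT HFHS arrays. The titles were followed. The protocol also mentions assignment to vehicle or S961, without saying which mice received which, and the muscle dissected is not named. The arrays of the SD groups were on 1 slide and those of the HFHS groups on another. An effect of diet therefore cannot be told apart from one of slide. Each slide held both genotypes, but on both slides the WT arrays were in row 1 and the CB1KO arrays in row 2. Genotype therefore cannot be told apart from the row on the slide. Cnr1, the receptor gene, was well above background on 14 of the 16 arrays, and its mean differed between genotypes by -0.23 ± 0.46 (SE) on SD and -0.14 ± 0.46 on HFHS (log2; limma, adjusted p = 0.94 and 0.932, n = 4 arrays a group), so it does not check the labels. All 8 muscle fibre markers were detected on every array. The slow-twitch fibre markers fell into separate clusters: their mean level was -1.27 to 0.70 on 4 arrays (WT SD replicates 1 and 2, WT HFHS replicate 4 and CB1KO HFHS replicate 1) and 3.05 to 5.99 on the other 12.

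Glucose enters the resting fibre slowly and, after insulin or contraction, through the transporter GLUT4, which moves to the cell surface. Hexokinase traps it as glucose 6-phosphate, which either feeds glycolysis or is built into glycogen on a glycogenin core by glycogen synthase and the branching enzyme. During work, phosphorylase kinase switches on glycogen phosphorylase, and the glycolytic enzymes, which are among the most abundant proteins of fast fibres, turn the released glucose into pyruvate and lactate.

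Values below are log2 of the processed spot intensity minus the array's 75th percentile, so 1 unit is a doubling. Differences carry the standard error (SE) of a linear model fitted to all genes with limma, and an adjusted p is its two-sided Benjamini-Hochberg value over the 28964 genes, called below 0.05. Levels of different probes cannot be set against each other on an array and are not compared. The labels call the arrays of a group biological replicates, and values within a sentence stand in the order of replicates 1 to 4.

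Upstream sequences are shown for 3 genes that the results name, as RefSeq gives them for GRCm38.p6: the 200 bases before the start of Txnip, a glucose-induced brake on uptake, of Eno1, the single member called, and of Gyg, the lower member with the smallest p on HFHS. The windows are chr3:96557757-96557956 (plus strand), chr4:150236508-150236707 (plus strand, the most upstream of 3 listed starts) and chr3:20155117-20155316 (minus strand). Capitals mark CACGAG, the half-site of the element through which glucose-sensing factors are known to act on Txnip.
Txnip: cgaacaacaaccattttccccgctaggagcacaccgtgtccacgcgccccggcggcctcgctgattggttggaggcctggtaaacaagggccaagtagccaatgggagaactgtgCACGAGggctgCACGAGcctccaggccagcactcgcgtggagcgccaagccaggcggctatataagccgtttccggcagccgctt
Eno1: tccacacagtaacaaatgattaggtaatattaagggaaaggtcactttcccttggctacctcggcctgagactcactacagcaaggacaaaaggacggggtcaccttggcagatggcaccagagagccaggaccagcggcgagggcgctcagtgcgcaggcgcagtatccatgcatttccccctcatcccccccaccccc
Gyg: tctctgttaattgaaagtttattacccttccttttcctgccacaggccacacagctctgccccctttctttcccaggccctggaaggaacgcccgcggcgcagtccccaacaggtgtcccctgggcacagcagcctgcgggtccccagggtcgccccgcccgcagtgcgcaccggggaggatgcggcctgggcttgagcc
In Txnip a pair of CACGAG sites stood 5 bases apart, and no other of the 32851 windows of this length in the table held that pair on either strand. At least 1 CACGAG was in 6 of the 50 windows listed for 35 members (12%), that of Txnip included, against 4.41% of all windows. The E-box CACGTG was in 6 of the 50 (12%), against 5.26%, and ACGTG, which lies within CACGTG and is the core bound by hypoxia-inducible factor, in 16 (32%), against 14%. Several windows belong to one gene, because 9 members have more than 1 start, and the printed Eno1 and Gyg windows held none of these letters.

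Txnip itself, whose protein rises with glucose and drives glucose transporters off the surface, varied little. Its values were 6.25, 6.20, 6.56 and 6.39 in WT on SD, 6.50, 6.39, 6.39 and 6.13 in CB1KO on SD, 6.54, 6.49, 6.40 and 6.53 in WT on HFHS and 6.29, 6.50, 5.99 and 6.52 in CB1KO on HFHS. All 4 groups overlapped, and the lowest array was a CB1KO HFHS one. Its difference was -0.17 ± 0.14 for CB1KO against WT on HFHS (adjusted p = 0.749) and 0.14 ± 0.14 for HFHS against SD in WT (adjusted p = 0.996). The former was -0.05 under quantile normalization, and the latter was below 0, at -0.08, in the authors' deposited scores.

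Slc2a4 encodes GLUT4. It read 7.50, 7.71, 7.31 and 7.31 in WT and 7.41, 6.97, 7.72 and 7.51 in CB1KO on SD, where the groups overlapped. On HFHS it read 7.46, 7.59, 7.65 and 7.64 in WT and 7.40, 7.26, 7.25 and 7.34 in CB1KO, so that every knockout array lay under every WT array. The difference on HFHS, -0.27 ± 0.15, did not pass (adjusted p = 0.642, limma; exact permutation p = 0.0286, two-sided, which is the smallest that 4 arrays against 4 can give), and was -0.14 under quantile normalization. Slc2a1, the basal transporter GLUT1, differed by -0.19 ± 0.24 there (adjusted p = 0.808).

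Hexokinase 2, the insulin-responsive isoform of muscle, gave for Hk2 5.05, 5.35, 4.91 and 5.01 in WT on SD, 4.94, 4.88, 5.69 and 5.68 in CB1KO on SD, 5.31, 5.36, 5.14 and 5.39 in WT on HFHS and 5.17, 5.22, 5.12 and 5.01 in CB1KO on HFHS. CB1KO SD replicates 3 and 4 were the highest arrays, and the groups overlapped in each comparison. Its differences were 0.22 ± 0.18 on SD and -0.17 ± 0.18 on HFHS (adjusted p = 0.825 and 0.785), and 0.34 and -0.06 under quantile normalization. Hk1, the isoform of most tissues, differed by 0.17 ± 0.22 and 0.21 ± 0.22.

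On the HFHS diet no member passed the threshold for CB1KO against WT, where 0.235% of all genes did. Eno1, Gyg, Stbd1 and Gbe1 had an unadjusted p below 0.05, 4 of 37 members against 8.97% of all genes. The groups did not overlap for 6 members, higher in CB1KO for Eno1, Stbd1 and Pgam1 and lower for Gyg, Ugp2 and Slc2a4, against 10.1% of all genes. The members' median difference was -0.0019 beside -0.13 over all genes tested.

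Eno1 encodes alpha-enolase, the enolase of most cell types, whose place in mature fibres is taken by the beta form. Its values on HFHS were 5.06, 5.12, 5.37 and 4.93 in WT and 5.58, 5.95, 5.83 and 5.80 in CB1KO. Those on SD were 5.10, 5.28, 5.50 and 5.39 and 5.64, 5.53, 5.48 and 5.43. Every CB1KO HFHS array lay above every WT HFHS array, while on SD the lowest knockout array lay under the highest WT array. The difference was 0.67 ± 0.13 on HFHS (adjusted p = 0.0553) and 0.20 ± 0.13 on SD (adjusted p = 0.74), and the difference between these, 0.47 ± 0.18, did not pass (adjusted p = 1). The SD difference was 0.01 with the slow-twitch level as a covariate and 0.07 without the 4 arrays low in slow-twitch markers, where that on HFHS was 0.71 and 0.68; both settings were chosen after seeing the data.

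Averaged over both diets, Eno1 was higher in CB1KO by 0.44 ± 0.09 (adjusted p = 0.0474; exact permutation p within diets 0.00122, two-sided). It was the single member of 37 called in that comparison, against 0.708% of all genes, and 6 members had an unadjusted p below 0.05, against 14.2%. The call rests on a narrow margin: of the 16 fits that each left out 1 array it held in 3, with differences of 0.40 to 0.48 and adjusted p of 0.0323 to 0.117. Without the 4 arrays low in slow-twitch markers the difference was 0.37 (adjusted p = 0.265). In the averaged comparison 7 of 7 slow-twitch markers had differences above 0 (median 1.08), as had 6 of 6 macrophage markers (median 0.35), none called.

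Eno1 has a near-identical retrocopy, Eno1b, with its own probe, and RNA of one may bind the other's probe. Deviations of the 2 probes from their group means had r = 0.907 over the 16 arrays, which share their libraries and scaling. The Eno1b probe differed by 0.33 ± 0.15 on HFHS, -0.12 ± 0.15 on SD and 0.11 ± 0.10 averaged over diets (adjusted p = 0.525, 0.889 and 0.659). The beta form Eno3 differed by -0.10 ± 0.17 on HFHS (adjusted p = 0.856). Macrophage markers moved beside Eno1 on HFHS: 6 of 6 had differences above 0, with a median of 0.70 and none called, their summed level ran from 4.10 to 5.31 in WT and 4.76 to 6.26 in CB1KO, and each group had all 6 detected on every array. Their part in the Eno1 result was not tested. More cells with the transcript and more transcript a cell cannot be told apart in whole tissue, here and in the results that follow.

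Gyg encodes glycogenin, the protein that primes each glycogen particle. On HFHS its values were 7.51, 7.59, 7.35 and 7.82 in WT and 7.14, 6.91, 6.99 and 6.80 in CB1KO, with no overlap. On SD they were 7.80, 7.74, 7.33 and 7.27 and 6.99, 6.88, 7.61 and 7.59, where CB1KO replicates 3 and 4 lay among the WT arrays. The difference of -0.60 ± 0.19 on HFHS did not pass (adjusted p = 0.314; exact permutation p = 0.0286), nor did -0.44 ± 0.14 averaged over diets (adjusted p = 0.166). A second Gyg probe gave -0.53 on HFHS (adjusted p = 0.506).

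Other genes of glycogen synthesis and targeting went both ways on HFHS. Gbe1, the branching enzyme, read 3.69, 4.18, 4.08 and 3.79 in WT on SD, 4.23, 3.61, 4.80 and 4.69 in CB1KO on SD, 4.09, 4.28, 4.54 and 3.81 in WT on HFHS and 3.50, 3.88, 3.56 and 3.48 in CB1KO on HFHS. Of the CB1KO HFHS arrays, replicates 1, 3 and 4 were the lowest of all 16, and the CB1KO SD group spanned over 1 unit. The difference was -0.57 ± 0.24 on HFHS (adjusted p = 0.497) and 0.40 ± 0.24 on SD (adjusted p = 0.712), with an interaction of -0.97 ± 0.34 (adjusted p = 1), the member with the smallest unadjusted p for the interaction.

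Stbd1 tethers glycogen to membranes. It read 4.15, 4.45, 3.43 and 4.49 in WT and 4.85, 4.58, 5.17 and 4.81 in CB1KO on HFHS, against 4.18, 4.30, 4.12 and 4.83 in WT and 4.10, 3.92, 4.42 and 4.98 in CB1KO on SD. WT HFHS replicate 3 was far under the rest, and even without it the knockout arrays were the higher ones on HFHS. The difference was 0.72 ± 0.27 on HFHS (adjusted p = 0.435) and -0.01 ± 0.27 on SD (adjusted p = 0.999).

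Ugp2 makes UDP-glucose, the sugar donor for glycogen. Its HFHS values were 6.66, 7.02, 6.76 and 6.83 in WT and 6.43, 6.64, 6.59 and 6.29 in CB1KO, and its SD values 6.31, 6.64, 6.51 and 6.58 in WT and 6.39, 6.23, 6.85 and 6.82 in CB1KO. The WT HFHS arrays lay above both the CB1KO HFHS and the WT SD arrays. The differences were -0.33 ± 0.16 for genotype on HFHS (adjusted p = 0.561) and 0.31 ± 0.16 for diet in WT (adjusted p = 0.875). They were -0.20 under quantile normalization and 0.09 in the authors' deposited scores, respectively.

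Gys1, muscle glycogen synthase, read 5.48, 5.97, 6.10 and 6.02 in WT and 6.60, 6.05, 6.25 and 5.85 in CB1KO on SD, and 5.63, 5.97, 6.12 and 5.61 in WT and 5.51, 6.40, 6.21 and 6.45 in CB1KO on HFHS. The groups overlapped on both diets. Its differences, 0.30 ± 0.23 on SD and 0.31 ± 0.23 on HFHS, did not pass (adjusted p = 0.807 and 0.727). With the slow-twitch level as a covariate they were -0.07, with the sign reversed, and 0.38, and without the 4 low arrays 0.13 and 0.45. Ppp1r3a and Ppp1r3c, which bring protein phosphatase 1 to glycogen, differed on HFHS by -0.31 ± 0.21 and 0.26 ± 0.49.

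**Figure D1:**
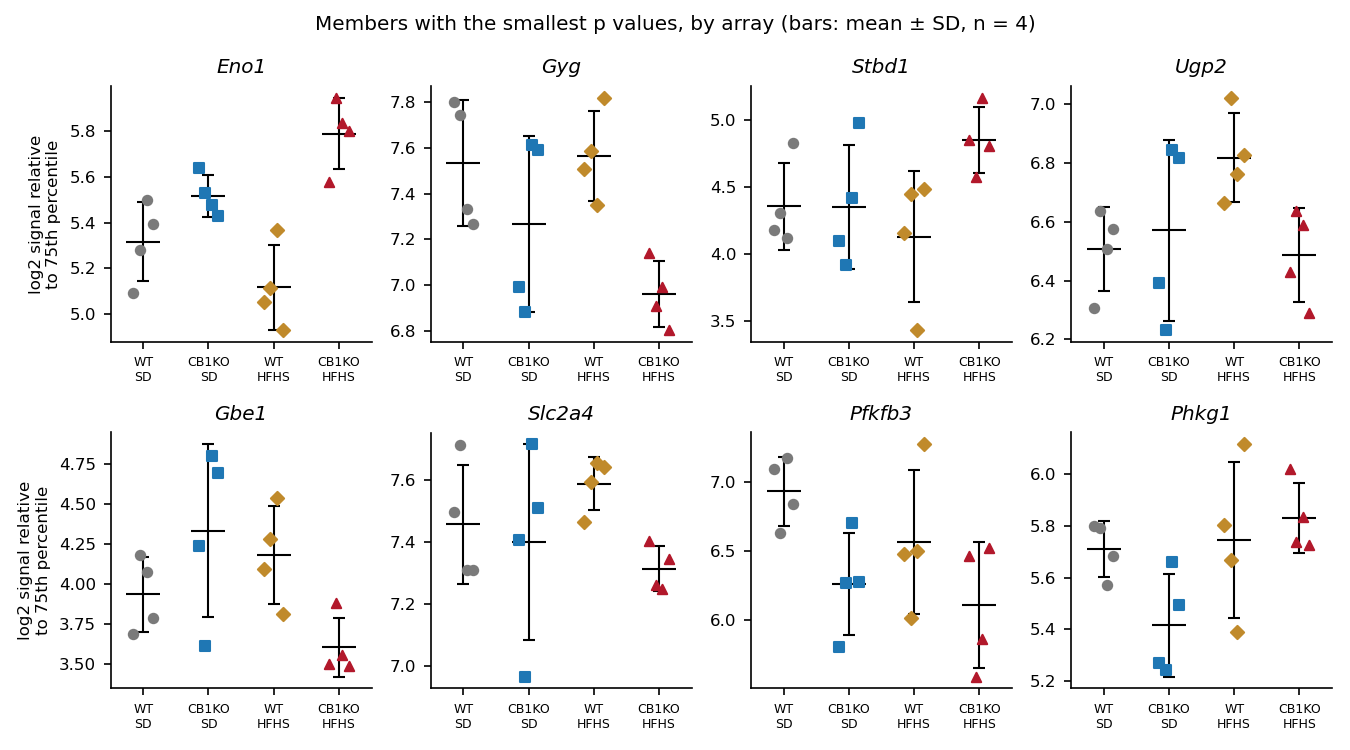
Log2 signal relative to the array's 75th percentile for 8 members in the 4 groups; each point is 1 array, and bars show the mean ± standard deviation of 4 arrays. For Eno1 the CB1KO HFHS arrays (5.58 to 5.95) lay above all WT HFHS arrays (4.93 to 5.37), and for Gyg they lay under them.

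On the standard diet no member was called for CB1KO against WT, where 0.00345% of all genes was. Phkb, Pygm, Pfkfb3, Pgam2 and Gpd1 had an unadjusted p below 0.05, all with lower means in CB1KO: 5 of 37 members against 8.72% of all genes, or 6.5% of all genes counting lower ones only. That count hung on single arrays: in either direction it was 0 without CB1KO SD replicate 1 and 8 without CB1KO SD replicate 2. The members' median difference was -0.16 beside -0.12 over all genes. One member, Pgam2, did not overlap between groups, against 3.96% of all genes. Slow-twitch markers moved with this comparison, 7 of 7 above 0 with a median of 2.96 (summed level 2.45 to 7.89 in WT and 8.19 to 9.72 in CB1KO), as did adipocyte markers, 7 of 7 below 0 with a median of -1.04 (2.23 to 7.97 in WT and 2.76 to 6.65 in CB1KO), and fast-twitch markers, 8 of 8 below 0 with a median of -0.22 (12.44 to 12.76 in WT and 12.09 to 12.93 in CB1KO). None of these markers was called, and their part in the members' differences was not tested.

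The 4 genes of glycogen breakdown all had lower means in CB1KO on SD (-0.45 to -0.30), with the same count under quantile normalization and in the authors' deposited scores, and with the slow-twitch level as a covariate, which was added after seeing the data. Their median was -0.36 at the main scaling, -0.25 under quantile normalization and -0.22 with the covariate. None of the 4 passed the test. The lower means of Phka1, Phkb and Phkg1 are not independent of each other. In each of these genes CB1KO SD replicates 1 and 2 lay under replicates 3 and 4 (Phka1 read 6.56, 6.81, 7.31 and 7.34).
Pygm, muscle glycogen phosphorylase, read 9.34, 9.26, 9.10 and 9.41 in WT and 8.87, 9.11, 8.93 and 8.87 in CB1KO on SD, and 8.56, 9.03, 8.95 and 8.99 and 8.75, 9.23, 8.97 and 9.001 on HFHS. WT SD replicates 1, 2 and 4 were the highest of all arrays, replicate 3 lay just under 1 CB1KO SD array, and the HFHS groups overlapped. Its difference was -0.33 ± 0.14 on SD (adjusted p = 0.52), or -0.15 under quantile normalization, and 0.11 ± 0.14 on HFHS (adjusted p = 0.813).

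Phkb encodes the beta regulatory subunit of phosphorylase kinase. Its SD values were 4.21, 4.08, 4.19 and 4.19 in WT and 3.53, 3.56, 4.18 and 3.82 in CB1KO, and its HFHS values 3.98, 3.94, 3.49 and 4.10 and 3.90, 3.63, 3.83 and 3.59. The WT SD arrays were tightly grouped, and CB1KO SD replicate 3 lay among them. The difference on SD was -0.39 ± 0.16 (adjusted p = 0.516), with -0.14 ± 0.16 on HFHS (adjusted p = 0.805).
Phkg1 encodes the catalytic subunit of muscle. It read 5.80, 5.79, 5.57 and 5.68 in WT on SD, 5.27, 5.24, 5.66 and 5.49 in CB1KO on SD, 5.80, 5.67, 5.39 and 6.12 in WT on HFHS and 6.02, 5.74, 5.83 and 5.73 in CB1KO on HFHS. In CB1KO every HFHS array lay above every SD array, a diet difference of 0.41 ± 0.15 (adjusted p = 0.393), and a second probe gave 0.43. Phka1, the alpha regulatory subunit, differed by -0.45 ± 0.23 for genotype on SD (adjusted p = 0.621), and by -0.17 with the slow-twitch covariate.

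Pfkfb3 makes fructose 2,6-bisphosphate, the strongest activator of phosphofructokinase. It read 7.09, 6.63, 7.17 and 6.84 in WT and 5.80, 6.27, 6.70 and 6.27 in CB1KO on SD, and 6.48, 6.01, 6.50 and 7.27 and 6.47, 5.59, 5.86 and 6.52 on HFHS. On SD a single knockout array, replicate 3, exceeded the lowest WT array, and on HFHS the groups overlapped. The difference was -0.67 ± 0.28 on SD, -0.46 ± 0.28 on HFHS and -0.56 ± 0.20 averaged over diets (adjusted p = 0.525, 0.68 and 0.219). That on SD was -0.42 with the slow-twitch covariate. Its second probe gave -0.59 for the average (adjusted p = 0.262).

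Pfkfb1, another isoform of this enzyme, differed by 0.28 ± 0.17 on SD and -0.27 ± 0.17 on HFHS, with an interaction of -0.55 ± 0.24 (adjusted p = 1).
Gpd1, which passes glycolytic carbon and electrons to glycerol 3-phosphate, read 7.82, 7.92, 7.69 and 7.57 in WT and 7.13, 7.01, 7.72 and 7.52 in CB1KO on SD, and 7.46, 7.47, 7.20 and 7.83 and 7.71, 7.26, 7.55 and 7.43 on HFHS. CB1KO SD replicates 1 and 2 were the lowest arrays, and the genotypes overlapped on both diets. The difference was -0.40 ± 0.18 on SD (adjusted p = 0.547), where the adipocyte markers given above also had lower means. With the slow-twitch level as a covariate it was -0.20. The part of either marker list was not tested. Fbp2, the muscle fructose bisphosphatase, differed by -0.19 ± 0.23 on SD and 0.03 ± 0.23 on HFHS.

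**Figure D2:**
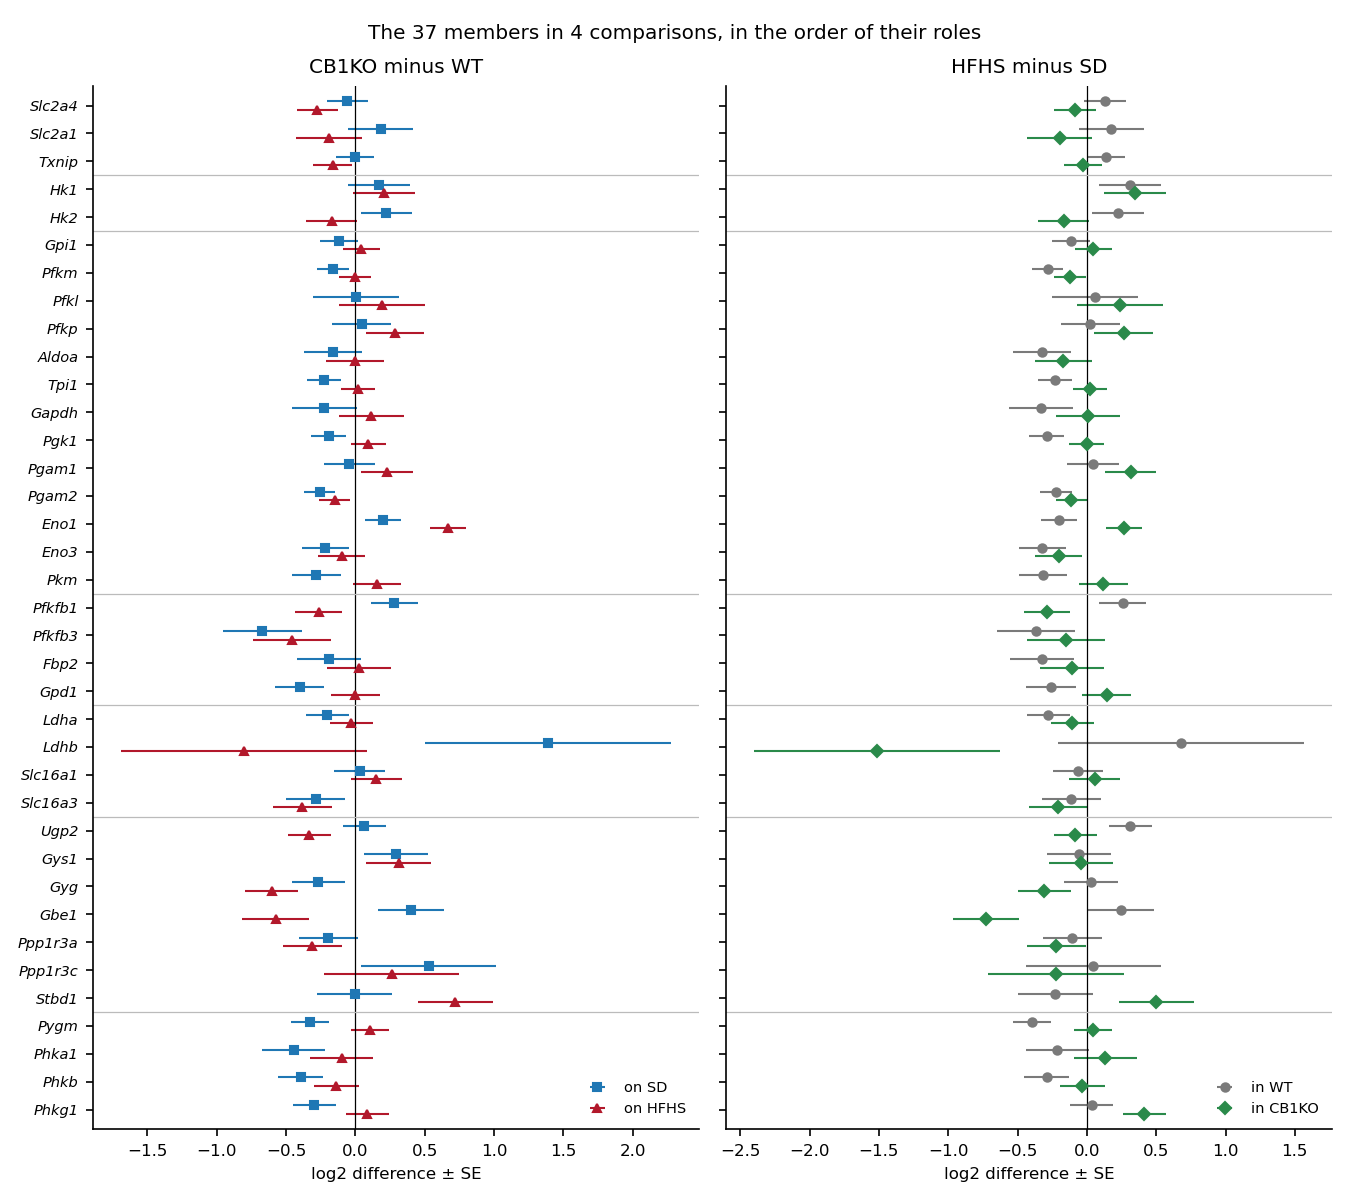
Log2 differences of all 37 members with their standard errors, for CB1KO minus WT on each diet (left) and HFHS minus SD in each genotype (right); grey lines part the roles, from uptake at the top to glycogen breakdown at the bottom. Eno1 on HFHS, at 0.67 ± 0.13, stands farthest from 0 for its error, and Ldhb has the widest bars.

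Many of the glycolytic enzymes gave very bright spots. Aldoa (aldolase A) was the brightest non-control spot on all 16 arrays, its raw median intensity was 82.7% to 95.9% of the scanner's saturation value, and no spot was marked saturated. Its unscaled log2 signal spanned 0.19 over the arrays, while the 75th percentile used for scaling spanned 1.20, from 8.41 to 9.61. Its scaled values had r = -0.989 with that percentile, a description over 16 arrays in which the percentile is part of both measures. Gapdh, Eno3 and Ldha reached 65%, 50% and 46.3% of the saturation value, with r of -0.886, -0.916 and -0.892. The unscaled signals of Slc2a4, Txnip and Eno1 rose with the percentile (r = 0.889, 0.893 and 0.76), and their scaled values had r of 0.268, 0.032 and 0.057. Some bright enzymes followed the percentile as closely before scaling: the unscaled r was 0.885 for Pfkm, 0.88 for Gpi1, 0.876 for Tpi1, 0.864 for Pgk1 and 0.787 for Ldha, beside 0.244 for Gapdh. After scaling, Gpi1 and Pgk1 had r of -0.327 and -0.161.

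**Figure D3:**
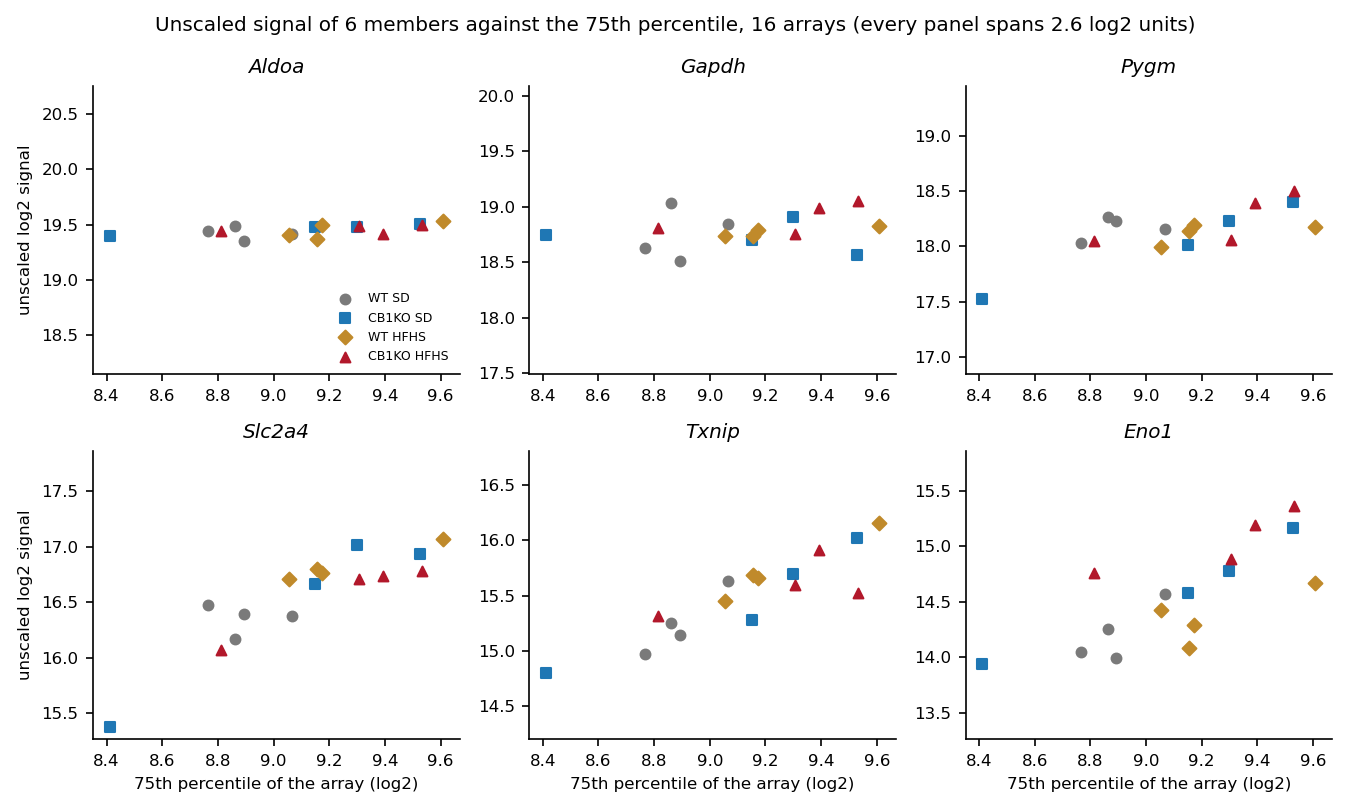
Unscaled log2 processed signal of 6 members against the 75th percentile of the same array, for 16 arrays marked by group; all vertical axes span the same number of log2 units. Aldoa stayed within 0.19 while Slc2a4 and Txnip followed the percentile.

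A total of 11 members exceeded 20% of the saturation value on some array, a limit chosen after their values were seen: Aldoa, Gapdh, Eno3, Ldha, Pfkm, Pygm, Pgam2, Tpi1, Gpi1, Pgk1 and Pkm. The WT SD arrays had the lowest mean percentile, 8.90 ± 0.13 (standard deviation, n = 4), against 9.10 ± 0.48 in CB1KO on SD, 9.25 ± 0.25 in WT on HFHS and 9.26 ± 0.31 in CB1KO on HFHS. All 11 had lower means in CB1KO than WT on SD, with a median of -0.22, and all 11 had lower means on HFHS than SD in WT, with a median of -0.29. In the authors' deposited scores, multiplied by the arrays' mean standard deviation, the counts were also 11 and 11 (medians -0.15 and -0.62). With the slow-twitch covariate the counts were 11 and 11 again (-0.26 and -0.32). Under quantile normalization, which gives Aldoa, the brightest spot on every array, a difference of 0, they were 9 and 8 of 11, with medians of -0.06 and -0.03. The fast-twitch markers moved with these members: 8 of 8 were below 0 in both comparisons, with medians of -0.22 and -0.35, none called. Their summed level was 12.44 to 12.76 in WT on SD, 12.09 to 12.93 in CB1KO on SD and 11.97 to 12.40 in WT on HFHS. These markers share the members' scaling, and their highest level, 12.93, was on CB1KO SD replicate 2, the array with the lowest percentile (8.41). The part of these markers, and of the spots' brightness, was not tested. The other 26 members had 13 means below 0 and a median of 0.0008 for genotype on SD, and 11 below 0 and a median of 0.03 for diet in WT.

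Pfkm, the muscle phosphofructokinase that sets the pace of glycolysis, read 9.14, 9.30, 9.19 and 9.38 in WT and 9.04, 9.20, 9.09 and 9.02 in CB1KO on SD, and 8.76, 9.04, 9.10 and 8.99 and 8.84, 9.15, 8.88 and 9.004 on HFHS. The WT arrays did not overlap between diets, at a difference of -0.28 ± 0.11 (adjusted p = 0.778), which became -0.0047 under quantile normalization.
Pgam2, the muscle phosphoglycerate mutase, read 8.96, 9.08, 8.93 and 8.94 in WT and 8.64, 8.85, 8.79 and 8.60 in CB1KO on SD, and 8.52, 8.79, 8.89 and 8.81 and 8.57, 8.76, 8.53 and 8.57 on HFHS. The WT SD arrays lay above all other arrays. The differences of -0.26 ± 0.11 for genotype on SD and -0.22 ± 0.11 for diet in WT (adjusted p = 0.539 and 0.879) were -0.06 and -0.02 under quantile normalization, and 0.01 and 0.03, above 0, when normexp background correction preceded it.

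For diet, no member was called in WT, where no gene was by limma, or in CB1KO, where 0.0276% of all genes were. In WT 3 members had an unadjusted p below 0.05 (Pygm -0.39 ± 0.14, Pfkm -0.28 ± 0.11 and Pgk1 -0.29 ± 0.13), against 6.02% of all genes, and all are among the 11 bright members. Under quantile normalization their differences were -0.15, -0.0047 and -0.25. The count of 3 became 0 without WT HFHS replicate 1 and 5 without WT SD replicate 1. The groups did not overlap for Pygm, Pfkm, Pgam2 and Ugp2, against 5.52% of all genes. Pgk1, phosphoglycerate kinase, an enzyme of glycolysis that makes ATP, read 7.89, 8.08, 8.22 and 8.52 on SD and 7.83, 7.98, 7.77 and 7.97 on HFHS in WT, and 8.02, 7.94, 8.04 and 7.93 and 7.91, 7.93, 8.01 and 8.08 in CB1KO. WT SD replicate 4 was the highest array and WT SD replicate 1 lay among the HFHS arrays. Without the 4 arrays low in slow-twitch markers the Pgk1 difference in WT was -0.51. Beside this comparison 7 of 7 slow-twitch markers (median 1.33), 6 of 7 adipocyte markers (0.56) and 5 of 5 fibroblast markers (0.28) were above 0.

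In CB1KO 2 members had an unadjusted p below 0.05 for diet, Gbe1 (-0.73 ± 0.24, adjusted p = 0.307) and Phkg1 (0.41 ± 0.15), against 9.56% of all genes. Phkg1 alone of the members did not overlap, against 3.76% of all genes. Beside them all 7 slow-twitch markers were below 0 (median -1.66), and 6 of 7 adipocyte (1.76), 6 of 6 macrophage (0.65) and 5 of 5 fibroblast markers (0.54) above 0, none called. The members' median was -0.11 in WT and -0.04 in CB1KO, beside -0.05 and -0.06 over all genes. For the interaction of genotype and diet no member and no gene was called by limma; 4 members (Gbe1, Eno1, Pfkfb1 and Pygm) had an unadjusted p below 0.05, against 3.54% of all genes. All 13 glycolytic enzymes had an interaction above 0 (0.11 to 0.47), a count that became 9 under quantile normalization. All of these enzymes but Pfkl, Pfkp, Pgam1 and Eno1 are among the 11 bright members. The interaction was also above 0 for 8 of 8 fast-twitch (median 0.19), 7 of 7 adipocyte (1.33) and 6 of 6 macrophage markers (0.79), and below 0 for 7 of 7 slow-twitch markers (-2.44). The part of these markers, and of the spots' brightness, in the diet and interaction values was not tested.

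Lactate dehydrogenase exists as an A form of fast fibres and a B form of slow fibres and heart. Ldhb varied more than any other member, with a pooled standard deviation within groups of 1.35 and a range of 5.14 over the arrays, beside a median of 0.25 for the members and 0.35 for all genes. It read 3.27, 5.73, 5.77 and 5.31 in WT and 7.09, 5.65, 6.56 and 6.35 in CB1KO on SD, and 5.47, 5.99, 7.05 and 4.29 and 1.95, 6.48, 5.08 and 6.09 on HFHS. CB1KO HFHS replicate 1, WT SD replicate 1 and WT HFHS replicate 4 were the lowest arrays, and all 3 are among the 4 with low slow-twitch markers. Its differences were 1.39 ± 0.89 on SD and -0.80 ± 0.89 on HFHS (adjusted p = 0.735 and 0.791). With the slow-twitch level as a covariate they were -0.25 and -0.49.

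Because the arrays fell into 2 clusters, the relation to the slow-twitch level was computed within the 12 arrays of the higher one. There Ldhb had Pearson's r = 0.861 (permutation p = 0.00038, adjusted over the 37 members 0.0141) and Spearman's rho = 0.839 (permutation p = 0.001, adjusted 0.037). Leaving out the 2 arrays farthest from the median gave r = 0.819, and the 6 arrays of each slide gave 0.862 and 0.866. No other member passed after adjustment by either measure. Both measures come from the same arrays and share their scaling. The permutations took no account of group, so differences between group means enter these correlations and their p.

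**Figure D4:**
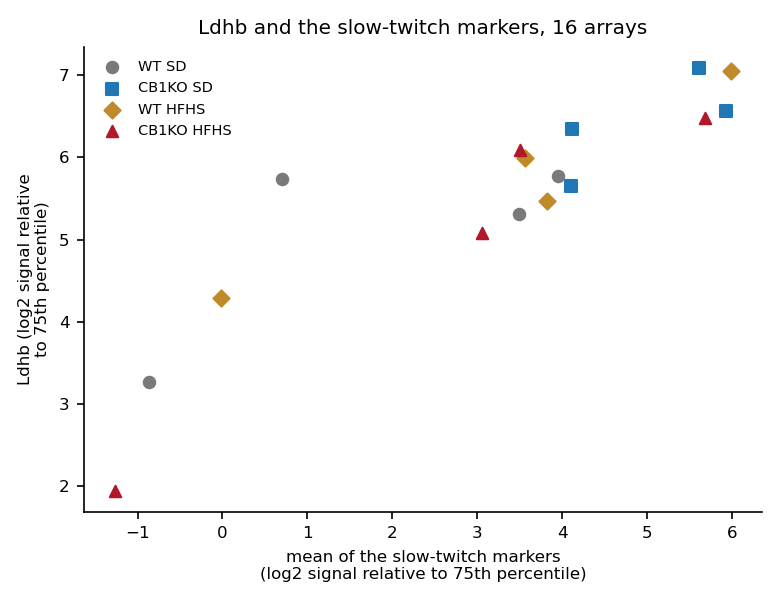
Ldhb against the mean of the 7 slow-twitch markers, both as log2 signal relative to the array's 75th percentile, for 16 arrays marked by group. The 4 arrays with a marker mean of 0.70 or less hold the 3 lowest Ldhb values, and within the other 12 both rise together (r = 0.861).

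Lactate leaves or enters the fibre through the carriers MCT1 and MCT4. Slc16a1 (MCT1) was well above background on 15 of the 16 arrays and was the only member under 16. It read -2.98, -2.89, -3.21 and -3.06 in WT and -2.74, -3.55, -3.04 and -2.69 in CB1KO on SD, and -3.24, -2.91, -2.91 and -3.34 and -3.15, -2.76, -2.85 and -3.02 on HFHS. The groups overlapped in each comparison, with differences of 0.03 ± 0.18 on SD and 0.15 ± 0.18 on HFHS. Slc16a3 (MCT4) differed by -0.33 ± 0.15 averaged over diets (adjusted p = 0.334), and its second probe by -0.37.

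Of 68 further genes of these pathways, listed by role, 67 were on the array and 64 were tested. They covered other transporters, control of uptake, other enzyme isoforms, regulators, pyruvate entry to mitochondria and glycogen metabolism. For genotype on HFHS 1 of the 64 was called, where 0.235% of all genes were. It was Emb, embigin, a chaperone that carries lactate transporters to the cell surface. It read -0.12, -1.25, -1.07 and -0.74 in WT and 1.04, 1.09, 1.20 and 0.66 in CB1KO on HFHS, and -0.44, -0.45, -1.35 and 0.10 and -0.52, -0.85, -0.80 and 0.01 on SD. Every CB1KO HFHS array lay above every other array. The difference on HFHS was 1.79 ± 0.31 (adjusted p = 0.0254), and -0.0048 ± 0.31 on SD.

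The Emb call held in 2 of the 8 fits that each left out 1 HFHS array, with differences of 1.64 to 2.01 and adjusted p of 0.0244 to 0.12, and it was lost without the 4 arrays low in slow-twitch markers (1.79, adjusted p = 0.232). The interaction, 1.79 ± 0.43, did not pass (adjusted p = 1). The macrophage values given with Eno1 stand beside this result too, and their part was not tested. No other gene of that list was called in any comparison. For genotype averaged over diets, 3 of the 64 had an unadjusted limma p below 0.05 with a higher mean in CB1KO, against 3.8% of all genes. Another 15 had one with a lower mean, against 10.4% of all genes. The list's median difference there was -0.13, beside -0.12 over all genes.

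Pgm1, the phosphoglucomutase that links glucose 1-phosphate from glycogen to glycolysis, was after Emb (0.89 ± 0.22, adjusted p = 0.0811) the nearest of that list to the threshold for the average over diets. It read 9.22, 9.11, 8.77 and 9.10 in WT and 8.28, 8.61, 8.55 and 8.77 in CB1KO on SD, and 8.64, 8.82, 8.54 and 8.90 and 8.59, 8.39, 8.36 and 8.27 on HFHS. On SD the genotypes did not overlap, by the least of margins (8.77 at the lowest WT and 8.768 at the highest CB1KO array). The average difference was -0.41 ± 0.10 (adjusted p = 0.0813). Over 31 alternative settings it ran from -0.46 to -0.29, with adjusted limma p of 0.0215 to 0.581, and 4 of them called it.
Epm2a, laforin, a glycogen phosphatase, read -0.83, -0.82, -0.33 and -0.75 on SD and -0.93, -1.42, -1.54 and -1.40 on HFHS in CB1KO, and -0.70, -0.63, -0.82 and -0.63 and -0.75, -0.75, -0.64 and -0.69 in WT. The 4 CB1KO HFHS arrays were the lowest of all 16. The diet difference in CB1KO was -0.64 ± 0.15 (adjusted p = 0.147) and the genotype difference on HFHS -0.61 ± 0.15 (adjusted p = 0.138).

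None of the members not described by array was called in any comparison. In the glycolytic enzymes Gpi1, Tpi1, Gapdh and Pkm, all in the bright group, differences for genotype ran from -0.28 to 0.15 over both diets. Pgam1, the mutase of most other tissues, was higher in every CB1KO HFHS array than in every WT HFHS array, by 0.23 ± 0.19 (adjusted p = 0.746), and by 0.06 without the 4 arrays low in slow-twitch markers. Pfkl and Pfkp, the liver and platelet phosphofructokinases, differed by 0.19 ± 0.31 and 0.29 ± 0.21 on HFHS. Another probe of Txnip, Pfkp and Gapdh had the opposite sign to the one used for the averaged genotype comparison, 1 of the 7 Gapdh probes among them, and each of these differences was at most 0.18 in size.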

How the data were processed

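Skeletal muscle RNA was measured on 16 one-colour Agilent arrays, 4 a group. Per the file headers, the deposited files hold spot intensity from Feature Extraction 11.5.1.1, where the processed intensity is background-corrected but not scaled between arrays. In the series table that the authors deposited, each spot has a score, which was checked to equal the log2 processed intensity after centring each array and dividing by its standard deviation. How the authors chose this scaling is not given in the sources used here. Differences in these scores are given after multiplying every score by the mean standard deviation of the 16 arrays. Members were found through the RefSeq accession of each probe (58 probes, 76 spots). From the log2 processed intensity the 75th percentile of the array was subtracted, control spots and outlier spots were left out (0.0177% of tested values missing), repeated spots were averaged, and the brightest probe well above background on at least 4 arrays stood for a gene. A linear model of the 4 group means took in the 16 arrays (limma 3.58.1, R 4.3.3), without the replicate number as a block, and tested on simulated data. Precision is limited by 4 arrays a group.

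The members and lists were chosen with earlier results of these data known. Values by array are given for 8 members picked by role (Slc2a4, Hk2, Pfkm, Pygm, Gys1, Txnip, Slc16a1 and Ldhb) and for the 5 members with the smallest p in each genotype and diet comparison; of the other pathway genes, those called and the 3 with the smallest p are named. Alternatives covered scaling, background correction, the filter on dim probes, probe choice, blocks, weights and leaving out arrays.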

Additional observations from a re-analysis of the deposited data

Results flagged for a closer look

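Of 148 sets of 4 arrays (37 members in 4 groups), 9 had 1 array apart from the other 3, with a gap to the nearest of them above Dixon's 95% critical value as a share of the whole range. Chance flags about 1 in 20 such sets. In the WT SD group these were Pfkp (gap ratio 0.915) and Phkb (0.84), each with replicate 2 lowest, Pgam2 (0.839), with replicate 2 highest, and Tpi1 (0.908), with replicate 1 lowest. In the CB1KO SD group it was Slc2a1 (0.844), with replicate 2 lowest at 1.13 against 2.11 to 2.29. In the WT HFHS group they were Pfkp (0.915), with replicate 3 highest at -0.27 against -0.998 to -0.937, Ppp1r3a (0.868), with replicate 3 lowest at 4.67 against 5.36 to 5.46, and Pgam1 (0.954), with replicate 4 lowest. In the CB1KO HFHS group it was Pgam1 (0.907), with replicate 1 highest at 3.77 against 3.32 to 3.36. No interaction of genotype and diet passed for any member.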

How the results depend on the processing

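With 4 arrays a group, none of the differences within 1 diet was called for a member, and the calls moved with small changes. On HFHS the count of members called for genotype, 0, became 1 (Eno1) with probes required above background on all 16 arrays, with the mean over probes, with the spread of log2 signal as a covariate, without both arrays of unusual signal spread, with trend and robust variances, and with the slow-twitch level as a covariate, which was chosen after seeing the data. It became 3 with array weights (Eno1, Gbe1 and Gyg). Leaving out 1 array each gave 0 to 1, the 1 being without CB1KO HFHS replicate 1. Averaged over diets the count of 1 (Eno1) became 0 in the authors' z-scores (adjusted p = 0.258), without a filter on dim probes (0.0859), with the replicate block (0.0976), with the slide block (0.0846) and without the 4 arrays low in slow-twitch markers (0.265), and 2 with the spread covariate (Eno1 and Gyg); leaving out 1 array each gave 0 to 1. The Eno1 difference ran from 0.36 to 0.56 over all these settings. Same-numbered arrays of both genotypes had deviations with r of -0.754 to 0.049 on SD and 0.049 to 0.434 on HFHS. Arrays of different numbers were not compared, so these values cannot tell whether the numbers pair the arrays. The number was also the array's column on its slide. The replicate block also took the Emb call on HFHS to an adjusted p of 0.0523. For diet in CB1KO array weights called 1 member (Gbe1). The members' median difference for diet moved to -0.3476 in WT and -0.3563 in CB1KO in the z-scores, whose zero is each array's mean. Pgam2 reversed under normexp with quantile normalization, to 0.0092 for genotype on SD and 0.0297 for diet in WT. Of the comparisons of single genes with an alternative, 645 kept their direction and their side of the threshold, 28 lost and 17 gained the call. Over all genes the count called for genotype averaged over diets ran from 47 without WT HFHS replicate 2 to 1961 with array weights, beside 205. Aldoa was read at 82.7% to 95.9% of the scanner's saturation value, which bounds how far its signal could rise, and no other member exceeded 65%. Whether this bound affected the Aldoa values was not tested.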
